A study of Mus musculus with 6 samples.

Results

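The genes of cholesterol and fatty acid synthesis were followed in 393P_vector and 393P_ZEB1 cells. They were chosen by symbol as 35 of the 24214 RefSeq features in the count tables, and comprise 5 SREBP and INSIG regulators, 17 enzymes of sterol synthesis, 11 enzymes of fatty acid synthesis, desaturation and elongation, and 2 sterol efflux transporters. All 35 were present in the tables and all 35 passed the filter on low counts. The cells derive from an epithelial murine lung adenocarcinoma line, named in the labels as KP lung cancer cells of strain C57BL/6, that was transfected with a ZEB1 expression vector (393P_ZEB1, 3 samples) or with the empty vector (393P_vector, 3 samples). Both groups were grown in RPMI-1640 with serum, without any further treatment. The study selected its stable transfectants with a drug, and the sources do not say whether each line was a clone or a pool, nor whether the 3 samples of a group came from separate cultures. The p-values therefore measure only the spread between these samples, which may be technical, and cannot separate ectopic ZEB1 from other differences between the lines.

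Cells control their sterol and fatty acid synthesis largely through the SREBP proteins, which are made as membrane-bound precursors in the endoplasmic reticulum. When sterols are scarce, the escort protein SCAP carries an SREBP to the Golgi, where it is cleaved and released as a transcription factor. When sterols are plentiful, INSIG proteins hold SCAP in place. SREBP2, encoded by Srebf2, is best known for the genes of sterol synthesis, and SREBP1, encoded by Srebf1, for those of fatty acid synthesis. The LXR receptors respond to oxysterols and are known to raise Abca1, Abcg1 and Srebf1, so that excess sterol is exported. Lung epithelium depends on these pathways for the lipids of surfactant.

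Total counts were between 54442450 and 79158012 per sample, and 3 counts corresponded to between 0.0361 and 0.0561 CPM, the count scaled to the TMM-normalized library size. Fold changes are given as log2 of 393P_ZEB1 over 393P_vector, and a value after ± beside one is its standard error. Gene positions are those of the count tables, on GRCm38. Zeb1 was at 21.2, 22.0 and 21.4 CPM in 393P_vector and at 54.9, 48.9 and 51.3 CPM in 393P_ZEB1 (log2 fold change 1.26 ± 0.10, edgeR adjusted p = 6.06e-05). All 6 epithelial markers examined were lower in 393P_ZEB1 cells, and for Epcam the range was 92.2 to 182 CPM in 393P_vector against 0.617 to 1.76 CPM in 393P_ZEB1. Krt8 and Krt18 fell less, to 0.65 and 0.59 times, and kept means of 585 and 1327 CPM. Of 7 mesenchymal or fibroblast markers 6 were tested. By edgeR (adjusted p below 0.05) Vim, Cdh2 and Pdgfrb were higher, Pdgfra was lower, and Col1a1 and Col1a2 were not called. Vim was already at a mean of 5508 CPM in 393P_vector, against 7330 CPM in 393P_ZEB1. The alveolar markers Sftpc, Sftpb, Sftpa1 and Nkx2-1 were at or near 0 in every sample, and a further alveolar gene, Abca3, was at 116 to 174 CPM in 393P_vector and 79.9 to 89.2 CPM in 393P_ZEB1. Summed over their lists, the 5 immune markers reached 4.3 CPM, the 3 endothelial markers 2.37 CPM and the 4 adipocyte markers 0.224 CPM in the highest sample. The CPM of 393P_vector replicate 3 lay outside the range of replicates 1 and 2 for 87.8% of all genes tested. Where leaving it out changed a member's call or moved its log2 fold change by over 1.5 times, the value without it is also given. Genes of whole chromosomes were shifted between the lines (median log2 fold changes from -0.43 on chromosome 17 to 0.64 on chromosome 18), so the median of the other genes of its chromosome is given where it lies close to a member's own change.

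The comparison of 393P_ZEB1 with 393P_vector asks which of these genes differ when ZEB1 is expressed in an epithelial line. In 393P_ZEB1 cells, 3 of the 35 members were higher, 7 were lower and 25 fell short of the threshold (adjusted p below 0.05, edgeR's quasi-likelihood test over 13892 genes). This is 28.6% of the members, against 37.6% of all genes tested, of which 18.3% were higher and 19.3% lower. The median log2 fold change of the members was -0.030, against -0.024 for all genes. The 3 higher genes were Abca1, Insig1 and Srebf1. The 7 lower genes were all enzymes of sterol synthesis, namely Tm7sf2, Fdft1, Nsdhl, Lss, Sc4mol, Mvk and Cyp51. None of the 11 fatty acid enzymes passed in either direction. The CPM of the groups did not overlap for 18 of the 35 members (52.8% of all genes tested), 5 of them with 393P_ZEB1 above (26.3% of all genes tested) and 13 with 393P_ZEB1 below (26.5% of all genes tested). Without 393P_vector replicate 3, 7 members were higher and 11 lower, while the shares among all genes rose to 26.5% higher and 27% lower. By DESeq2's Wald test 4 were higher and 9 lower (20.3% and 21.3% of all genes), and by limma voom with sample weights 7 and 13 (28.6% and 29.5% of all genes). With the chromosome medians as offsets, 2 were higher, Abca1 and Insig1, and 5 were lower, Mvk, Fdft1, Cyp51, Tm7sf2 and Nsdhl (16.1% and 14.4% of all genes). In bulk samples a change in RNA per cell and a change in the number of cells that carry it cannot be told apart.

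**Figure D1:**
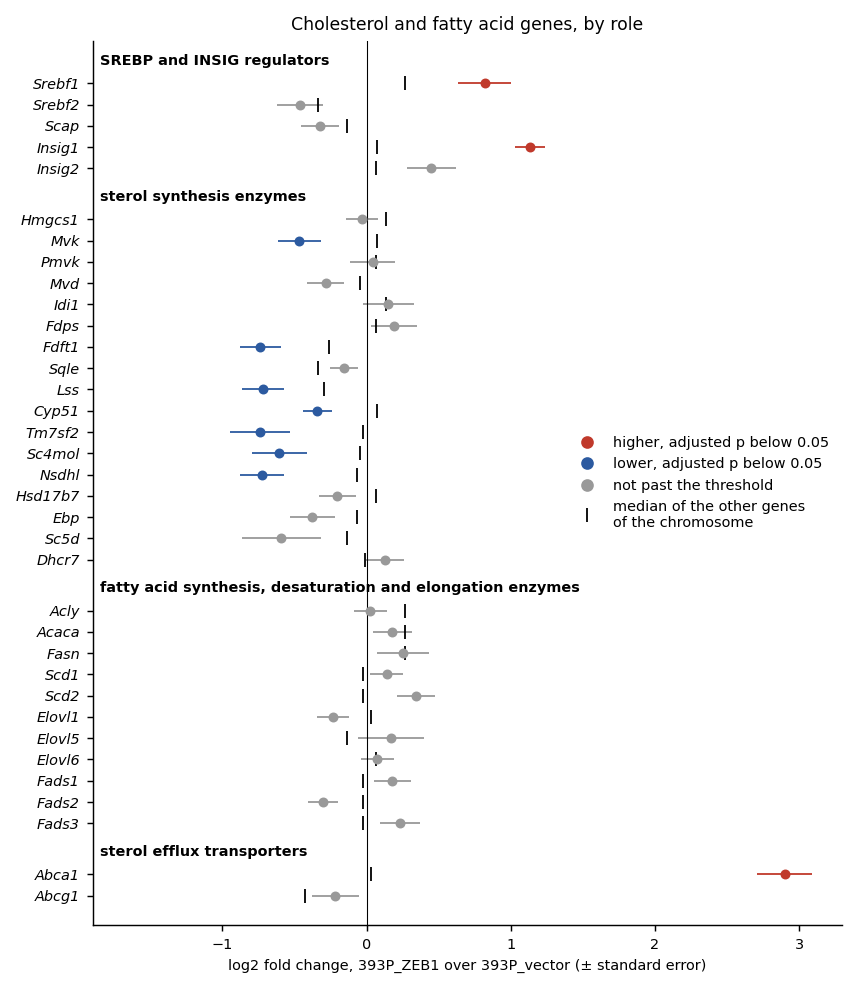
Log2 fold change (393P_ZEB1 over 393P_vector, horizontal axis, with its standard error as a bar) of each of the 35 members (rows, grouped by role), with red and blue for members past the threshold and a black tick for the median of the other genes of the chromosome. Abca1 stands at 2.90, the 7 blue points are all among the sterol synthesis enzymes and lie between -0.74 and -0.34, and the 11 fatty acid enzymes lie between -0.30 and 0.34.

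Promoter sequences (RefSeq, GRCm38.p6, from 250 bases before to 50 after a gene's start) were found for 28 of the 35 members (all but Fdps, Fdft1, Sqle, Scd1, Scd2, Fads1 and Abcg1), 37 promoters in all, and were searched on both strands. The motifs were the SREBP site TCACNCCAC, the E-boxes CAGGTG and CAGGTA that ZEB1 is known to bind, and CCAAT, the box of NF-Y, a known partner of SREBP. This form of the SREBP site was present in 1 member promoter (2.7%), that of Hmgcs1, and in 1.24% of all 32817 promoters. Only exact matches were searched, so other forms of the site would be missed. CAGGTG was found in 9 of the 37 member promoters (24.3%, against 20.2% of all promoters), which belong to Elovl1, Insig2, Lss, Pmvk, Sc4mol, Srebf1 and Srebf2. CAGGTA was found only in Lss among the members (2.7% of their promoters), and in 12% of all promoters. CCAAT was present in 24 of the 37 (64.9%, against 37.4% of all promoters). The windows listed here show the SREBP match in Hmgcs1, then every E-box match among the members, called or not, with the matched letters in capitals and read from the 5′ to the 3′ end on the strand of the gene. CACCTG is CAGGTG read from the other strand.
Hmgcs1 (chr13:119690203-119690232, plus strand): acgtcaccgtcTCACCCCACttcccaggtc
Srebf1 (chr11:60220611-60220640, minus strand): cgcccctccgctCAGGTGgctccgcccgcg
Srebf1 (chr11:60210422-60210451, minus strand): gctttaaagcctcgcggggcctgaCAGGTG
Srebf2 (chr15:82147289-82147318, plus strand): ggcggtgaggcggtacCAGGTGggggctgt
Insig2 (chr1:121327676-121327705, minus strand): ccgggcagagctCAGGTGagcttatttggc
Pmvk (chr3:89454426-89454455, plus strand): gtgcctcacaatCACCTGtaacttcaaagt
Pmvk (chr3:89459450-89459479, plus strand): gaggctgaagagCAGGTGtccgcgggtgca
Elovl1 (chr4:118429681-118429710, plus strand): gatctagtcagaCAGGTGgagccgccaggg
Sc4mol (chr8:64733539-64733568, minus strand): aggaggccgctgCACCTGccaggacttgcg
Lss (chr10:76531514-76531543, plus strand): gtctctcgtgccCACCTGgtgatgctctga
Lss (chr10:76531607-76531636, plus strand): gcactaggctgtCAGGTAaagggctggcaa
Lss was the member that held both E-boxes, CAGGTG before its start and CAGGTA after it. Srebf1 and Pmvk were the members with CAGGTG at more than 1 annotated start. Of the members with CAGGTG, Srebf1 rose, Lss and Sc4mol fell, and Elovl1, Insig2, Pmvk and Srebf2 did not pass. Of all genes tested, 37.6% were called. With the chromosome medians as offsets, Srebf1, Lss and Sc4mol were short of the threshold too (edgeR adjusted p = 0.0541, 0.0608 and 0.0605). A match is a description of these letters only, and no binding was measured.

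Among the regulators, Insig1 and Srebf1 rose and Srebf2, Scap and Insig2 did not pass the threshold. Insig1, on chromosome 5 from 28071412 to 28078662, encodes an endoplasmic reticulum protein that retains SCAP and is itself a well known SREBP target. Its level was 30.1, 31.7 and 31.9 CPM in 393P_vector replicates 1 to 3 and 69.8, 72.3 and 63.6 CPM in 393P_ZEB1 replicates 1 to 3. The 393P_ZEB1 samples were all above the 393P_vector samples, which lay close together. The rise was 2.19-fold (log2 fold change 1.13 ± 0.10, edgeR adjusted p = 0.000113), and it passed with each sample left out in turn, with log2 fold changes between 1.10 and 1.19. Insig2, on chromosome 1 from 121304353 to 121332580, encodes the other INSIG protein. Its level was 29.998, 27.6 and 42.2 CPM in 393P_vector and 47.2, 45.2 and 43.8 CPM in 393P_ZEB1. The groups did not overlap, but replicate 3 of 393P_vector was close to the 393P_ZEB1 samples, and the difference did not pass (log2 fold change 0.45 ± 0.17, edgeR adjusted p = 0.0739). Without that replicate the log2 fold change was 0.66 (edgeR adjusted p = 0.000153).

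Srebf1, on chromosome 11 from 60199089 to 60220604, was at 225, 236 and 144 CPM in 393P_vector and at 346, 357 and 364 CPM in 393P_ZEB1. All 393P_ZEB1 samples were higher, and 393P_vector replicate 3 was the lowest. The rise was 1.77-fold (log2 fold change 0.82 ± 0.18, edgeR adjusted p = 0.0103), and it passed with each sample left out in turn, with log2 fold changes between 0.63 and 0.95. The other genes of chromosome 11 had a median of 0.26, and with that median taken as an offset the change of Srebf1 was 0.56 and was short of the threshold (edgeR adjusted p = 0.0541). Its interval shares 107 bases with Rai1 on the other strand, which was not called (log2 fold change 0.32, edgeR adjusted p = 0.398).

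Srebf2, on chromosome 15 from 82147269 to 82204960, showed 397, 406 and 276 CPM in 393P_vector and 239, 275 and 269 CPM in 393P_ZEB1. The highest 393P_ZEB1 sample and 393P_vector replicate 3 were nearly equal, and the other 393P_vector samples were well above both. The difference did not pass (log2 fold change -0.46 ± 0.16, edgeR adjusted p = 0.0573), and the other genes of chromosome 15 had a median of -0.33. With that median as an offset the change was -0.13 (edgeR adjusted p = 0.594). Without 393P_vector replicate 3 the log2 fold change of Srebf2 was -0.62 (edgeR adjusted p = 0.000122). Scap, whose product escorts both SREBP proteins, was at 116, 120.2 and 89.9 CPM in 393P_vector and at 84.4, 91.4 and 85.2 CPM in 393P_ZEB1. Its groups overlapped through 393P_vector replicate 3, and its log2 fold change of -0.32 (edgeR adjusted p = 0.0907) was -0.44 without it (edgeR adjusted p = 0.000671).

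The balance of the SREBP genes was also read within each sample, as the ratio of their levels per kilobase of exon, so that library size cancels. The ratio of Srebf1 to Srebf2 was 0.602, 0.618 and 0.554 in 393P_vector and 1.54, 1.38 and 1.44 in 393P_ZEB1. Srebf2 was thus the more abundant of the pair in every 393P_vector sample and Srebf1 in every 393P_ZEB1 sample. The lowest ratio was that of 393P_vector replicate 3. The ratio was 2.46-fold higher in 393P_ZEB1 (difference of mean log2 ratios 1.3, two-sided exact permutation p = 0.1, the smallest that 3 samples against 3 allow). It was 1 of 4 ratios computed, which were chosen after the values were seen (Benjamini-Hochberg adjusted p = 0.133). For Insig1 to Insig2 the ratio was 0.955, 1.1 and 0.721 in 393P_vector and 1.41, 1.52 and 1.38 in 393P_ZEB1, again without overlap (exact permutation p = 0.1, adjusted p = 0.133). The chromosomes that carry Srebf1 and Srebf2 were shifted in opposite directions (medians of 0.26 and -0.33). With these medians as offsets, the log2 fold changes were 0.56 for Srebf1 and -0.13 for Srebf2, against 0.82 and -0.46 without them, and neither passed.

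**Figure D2:**
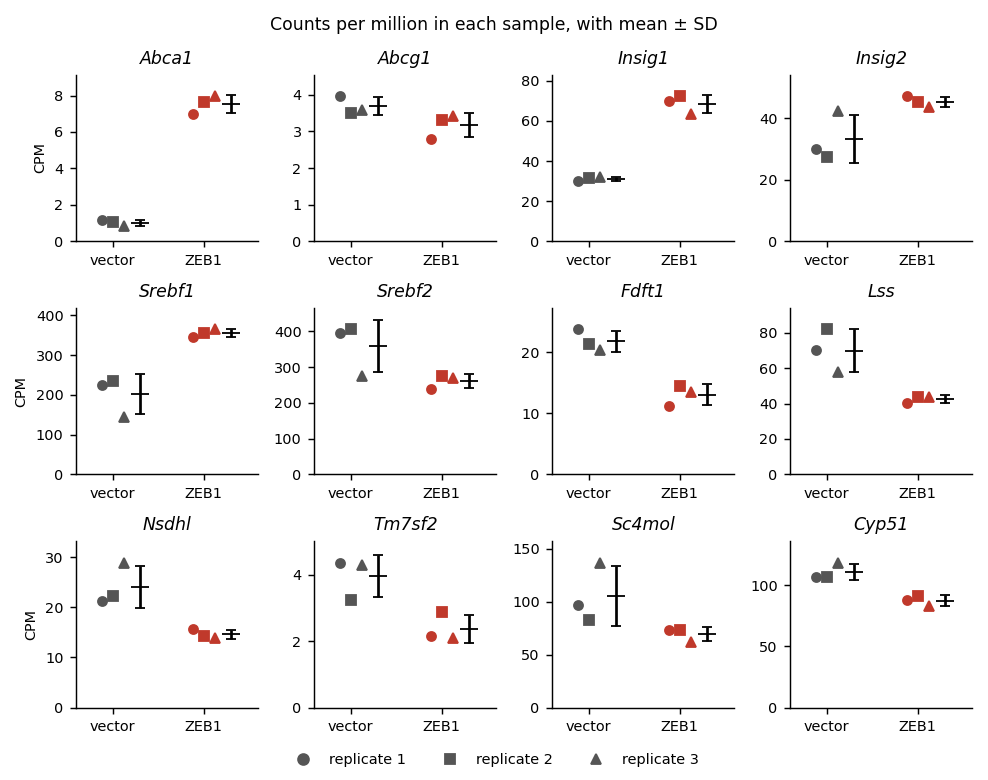
CPM of 12 members in each sample (vertical axes from 0), with circles, squares and triangles for replicates 1, 2 and 3, and a bar for the mean ± SD of each group of 3. Abca1, Insig1 and Srebf1 are separated upward in 393P_ZEB1, and Fdft1, Lss, Nsdhl, Tm7sf2, Sc4mol and Cyp51 downward. By a narrower gap, Insig2 is separated upward, and Srebf2 and Abcg1 downward. In relative terms, 393P_vector replicate 3 lies farthest from replicates 1 and 2 for Srebf1, Sc4mol, Insig2 and Srebf2.

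Of the 17 enzymes of sterol synthesis, 7 were lower in 393P_ZEB1 cells (41.2%, against 19.3% of all genes), 0 were higher (18.3% of all genes) and 10 did not pass. No enzyme was higher at an unadjusted p under 0.05 in edgeR, a cut at which the share of all genes was not computed. With DESeq2 none was higher (20.3% of all genes), and with sample-weighted limma voom 1 was, Dhcr7 (28.6% of all genes). The median log2 fold change of the 17 was -0.34, and 13 of the 17 had a negative sign. The number of lower enzymes ranged from 3 to 8 when each sample was left out in turn (12.8% to 27% of all genes). It was 3 without 393P_vector replicate 1, 393P_ZEB1 replicate 1 or 393P_ZEB1 replicate 3, 4 without 393P_ZEB1 replicate 2, 5 without 393P_vector replicate 2 and 8 without 393P_vector replicate 3. Fdft1, Lss and Nsdhl passed in all 6 of these fits, Tm7sf2 in 3 (without 393P_vector replicate 2 or 3 or 393P_ZEB1 replicate 2), Sc4mol in 2 (without 393P_vector replicate 2 or 3), and Mvk and Cyp51 in 1 (without 393P_vector replicate 3). Summed over the 17 enzymes, the level was 875 to 979.5 CPM in 393P_vector and 729.9 to 765 CPM in 393P_ZEB1.

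The pathway begins with the steps that build isoprenoid units from acetyl-CoA, and most of these enzymes did not pass the threshold. Hmgcs1, which makes HMG-CoA, was at 146 ± 13.8 CPM (SD, n = 3) in 393P_vector and at 143 ± 9.02 CPM (SD, n = 3) in 393P_ZEB1 (log2 fold change -0.030 ± 0.11, edgeR adjusted p = 0.852). Mvk, the mevalonate kinase, was the early enzyme that fell, from 24.7, 27.8 and 26.01 CPM to 15.4, 19.9 and 21.6 CPM, without overlap of the groups. Its change was small (log2 fold change -0.47 ± 0.15, edgeR adjusted p = 0.0434). The next kinase, Pmvk, had a log2 fold change of 0.041 and the decarboxylase Mvd one of -0.28 (edgeR adjusted p = 0.857 and 0.125). On chromosome 3, the genes other than Pmvk had a median of 0.066. Mvd did not overlap between groups, at 26.3, 28.6 and 22.8 CPM in 393P_vector and 19.7, 22.5 and 21.8 CPM in 393P_ZEB1, the nearest samples being 393P_vector replicate 3 and 393P_ZEB1 replicate 2. Without 393P_vector replicate 3 its log2 fold change was -0.36 (edgeR adjusted p = 0.0109). For Idi1, the isomerase that balances the isoprenoid units, the log2 fold change was 0.15, and for Fdps, which joins them into farnesyl diphosphate, it was 0.19 (edgeR adjusted p = 0.534 and 0.391). On chromosome 13, the genes other than Idi1 had a median of 0.13, close to its own change. Idi1 was the member with the widest spread among 393P_ZEB1 samples, from 13.4 to 20.8 CPM.

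Fdft1 and Lss stand on either side of Sqle in the pathway, and both fell while Sqle did not pass. Fdft1 is the squalene synthase, the enzyme that commits farnesyl diphosphate to sterols, and lies on chromosome 14 from 63145150 to 63177793. Its level was 23.7, 21.4 and 20.3 CPM in 393P_vector and 11.3, 14.5 and 13.5 CPM in 393P_ZEB1. All 393P_ZEB1 samples were lower, and the mean went from 21.8 ± 1.75 CPM (SD, n = 3) to 13.1 ± 1.64 CPM (SD, n = 3) (log2 fold change -0.74 ± 0.14, edgeR adjusted p = 0.00488). The other genes of chromosome 14 had a median of -0.26, and with it as an offset the change of Fdft1 was -0.47 and passed (edgeR adjusted p = 0.0368). The interval of Fdft1 shares 774 bases with the abundant gene Ctsb on the other strand, which was lower too (log2 fold change -0.53, edgeR adjusted p = 0.00299). Whether the counting used strand is not given in the sources used here, so reads from this stretch cannot be assigned to either gene. Sqle, the squalene epoxidase, was among the most abundant sterol enzymes, at 178 ± 7.63 CPM (SD, n = 3) in 393P_vector and 159.6 ± 10.1 CPM (SD, n = 3) in 393P_ZEB1. The groups of Sqle overlapped (log2 fold change -0.15, edgeR adjusted p = 0.252), and the other genes of its chromosome 15 had a median of -0.33.

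Lss, on chromosome 10 from 76531627 to 76553934, encodes lanosterol synthase, which closes the sterol rings. It was at 70.3, 81.8 and 57.6 CPM in 393P_vector and at 40.1, 43.7 and 43.8 CPM in 393P_ZEB1. The 393P_ZEB1 samples lay close together and below every 393P_vector sample, of which replicate 3 was the lowest. The mean of 42.5 ± 2.12 CPM (SD, n = 3) in 393P_ZEB1 compares with 69.9 ± 12.1 CPM (SD, n = 3) in 393P_vector (log2 fold change -0.72 ± 0.14, edgeR adjusted p = 0.00644). The other genes of chromosome 10 had a median of -0.29, and with that median as an offset the change of Lss was -0.42 and was short of the threshold (edgeR adjusted p = 0.0608). A noncoding feature on the other strand of Lss, 4930483K19Rik, had almost no counts.

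After lanosterol, methyl groups are removed in a run of steps. Cyp51, the cytochrome P450 that removes the first methyl group, was at 107, 107 and 119 CPM in 393P_vector and 88.3, 91.3 and 82.99 CPM in 393P_ZEB1. The groups did not overlap and the change was the smallest of the 7 that passed (log2 fold change -0.34 ± 0.10, edgeR adjusted p = 0.0292). Tm7sf2, a sterol reductase of the step that follows, was the least abundant of the 17 sterol enzymes per length. It was at 4.36, 3.25 and 4.29 CPM in 393P_vector and 2.17, 2.86 and 2.096 CPM in 393P_ZEB1. Replicate 2 of 393P_vector was nearest to the other group (log2 fold change -0.74 ± 0.21, edgeR adjusted p = 0.025). Lbr, a late sterol enzyme outside the members, was far more abundant, at means of 203 CPM in 393P_vector and 172 CPM in 393P_ZEB1. Its groups overlapped and it did not pass (log2 fold change -0.24, edgeR adjusted p = 0.217). Sc4mol, the methyl oxidase also called Msmo1, showed 96.6, 82.96 and 137 CPM in 393P_vector and 73.4, 73.1 and 61.7 CPM in 393P_ZEB1. The highest value was that of 393P_vector replicate 3, and the log2 fold change of -0.61 (± 0.19, edgeR adjusted p = 0.0396) was -0.37 without it (edgeR adjusted p = 0.0119). With the chromosome 8 median as an offset, Sc4mol was at -0.56 and missed the threshold (edgeR adjusted p = 0.0605). Nsdhl, on chromosome X from 72918521 to 72958528, is the dehydrogenase that acts after Sc4mol. It was at 21.2, 22.2 and 28.9 CPM in 393P_vector and at 15.6, 14.3 and 13.9 CPM in 393P_ZEB1, with each 393P_ZEB1 sample below each 393P_vector sample (log2 fold change -0.72 ± 0.15, edgeR adjusted p = 0.00756). Without 393P_vector replicate 3 the log2 fold change of Nsdhl was -0.57 and still passed (edgeR adjusted p = 0.001). Hsd17b7, the ketoreductase of the same cycle, did not pass, at 38.3 ± 4.83 CPM (SD, n = 3) in 393P_vector and 33.3 ± 2.14 CPM (SD, n = 3) in 393P_ZEB1 (log2 fold change -0.20, edgeR adjusted p = 0.25).

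The last steps, which shift and reduce the double bonds of the sterol, held no gene past the threshold. Ebp, the isomerase, was at 30.1, 30.3 and 41.3 CPM in 393P_vector and 26.8, 27.8 and 23.8 CPM in 393P_ZEB1, without overlap (log2 fold change -0.38, edgeR adjusted p = 0.0963). Sc5d, the desaturase, had the widest spread of any member in 393P_vector, at 35.5, 32.4 and 66.5 CPM, against 33.2, 29.6 and 26.5 CPM in 393P_ZEB1. Its log2 fold change of -0.59 (edgeR adjusted p = 0.127) was -0.19 without 393P_vector replicate 3. Dhcr7, which makes cholesterol in the final reduction, was at 26.4 ± 3.76 CPM (SD, n = 3) in 393P_vector and 28.9 ± 1.38 CPM (SD, n = 3) in 393P_ZEB1 (log2 fold change 0.13, edgeR adjusted p = 0.483). It was called higher only when 393P_vector replicate 3 was left out or given a low weight.

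Of the 11 enzymes of fatty acid synthesis, desaturation and elongation, 0 were called by edgeR (37.6% of all genes) and 11 did not pass. At an unadjusted p under 0.05, 1 was higher and 1 was lower, and the share of all genes at that cut was not computed. DESeq2 called 1 lower (21.3% of all genes lower, 41.6% called), and sample-weighted limma voom called 2 higher and 2 lower (28.6% and 29.5% of all genes). Their median log2 fold change was 0.17, with 9 positive and 2 negative, and the range was -0.30 to 0.34. Per length, their median was the highest of the roles, at 43.8 CPM per kilobase in 393P_vector against 15.9 CPM per kilobase for the sterol enzymes. Summed over the 11 enzymes, the level was 3275 to 3985 CPM in 393P_vector, with replicate 3 the lowest, and 4149.6 to 4455 CPM in 393P_ZEB1. Fasn, Scd2 and Acly made up 71.3% to 77.7% of this sum.

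Acly, Acaca and Fasn carry citrate to palmitate in the cytosol, and all lie on chromosome 11, as does Srebf1. The level of Fasn, the fatty acid synthase, was 1287, 1236 and 814 CPM in 393P_vector and 1333, 1233 and 1411 CPM in 393P_ZEB1. Replicate 3 of 393P_vector stood apart and the remaining 5 samples overlapped (log2 fold change 0.25 ± 0.18, edgeR adjusted p = 0.306). Without that replicate the log2 fold change of Fasn was 0.074. For Acly, which splits citrate into acetyl-CoA, the levels were 531 ± 30.9 CPM (SD, n = 3) and 540.0 ± 53.1 CPM (SD, n = 3), and for Acaca, which makes malonyl-CoA, 88.3 ± 13.5 CPM (SD, n = 3) and 99.8 ± 6.43 CPM (SD, n = 3). Their log2 fold changes were 0.025 and 0.18 (edgeR adjusted p = 0.882 and 0.337). All 3 lay below the median of 0.27 of the other genes of chromosome 11, and with that median as an offset the signs turned to -0.013 for Fasn, -0.24 for Acly and -0.090 for Acaca, none past the threshold.

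Scd1 and Scd2 encode the stearoyl-CoA desaturases that make monounsaturated fatty acids. Scd2 was the most abundant of all 35 members per length in both groups, at 208 CPM per kilobase in 393P_vector and 263 CPM per kilobase in 393P_ZEB1. Its CPM was 1259, 1112 and 1024 in 393P_vector and 1619, 1344 and 1335 in 393P_ZEB1, without overlap and without passing the threshold (log2 fold change 0.34 ± 0.13, edgeR adjusted p = 0.0789). Scd1 was at 211 ± 20.2 CPM (SD, n = 3) in 393P_vector and 233 ± 16.2 CPM (SD, n = 3) in 393P_ZEB1 (log2 fold change 0.14, edgeR adjusted p = 0.363). The ratio of Scd1 to Scd2 per kilobase was 0.189, 0.194 and 0.255 in 393P_vector and 0.174, 0.194 and 0.184 in 393P_ZEB1, with overlap (exact permutation p = 0.2, adjusted p = 0.2 over 4 ratios). The Scd genes are close paralogs, and how reads shared between them were counted is not given in the sources used here. The microRNA feature Mir5114 lies within Scd2.

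None of the elongases and desaturases of polyunsaturated fatty acids passed the threshold. Elovl5, which elongates polyunsaturated fatty acids, was at 89.6, 80.2 and 145 CPM in 393P_vector and 134, 121 and 100.2 CPM in 393P_ZEB1. The highest of the 6 samples was 393P_vector replicate 3, and the log2 fold change of 0.17 (edgeR adjusted p = 0.593) became 0.48 without it (edgeR adjusted p = 0.00658). Elovl1, which elongates saturated fatty acids to very long chains, had a log2 fold change of -0.23 without overlap of the groups, and Elovl6, which extends palmitate to stearate, one of 0.075 with overlap (edgeR adjusted p = 0.142 and 0.64). On chromosome 3, the genes other than Elovl6 had a median of 0.064, close to its own change. Fads1, Fads2 and Fads3 lie side by side on chromosome 19. Fads2, which starts the synthesis of long polyunsaturated fatty acids, was at 66.3, 65.9 and 70.8 CPM in 393P_vector and 58.99, 52.7 and 53.1 CPM in 393P_ZEB1, the groups fully apart and the adjusted p just above the threshold (log2 fold change -0.30 ± 0.10, edgeR adjusted p = 0.0507). Fads1, the desaturase that acts later in that pathway, had a log2 fold change of 0.18 and Fads3 one of 0.23 (edgeR adjusted p = 0.309 and 0.22). Without 393P_vector replicate 3, Fads1 was called higher and Fads2 lower, at 0.29 and -0.27 (edgeR adjusted p = 0.0227 and 0.0231).

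**Figure D3:**
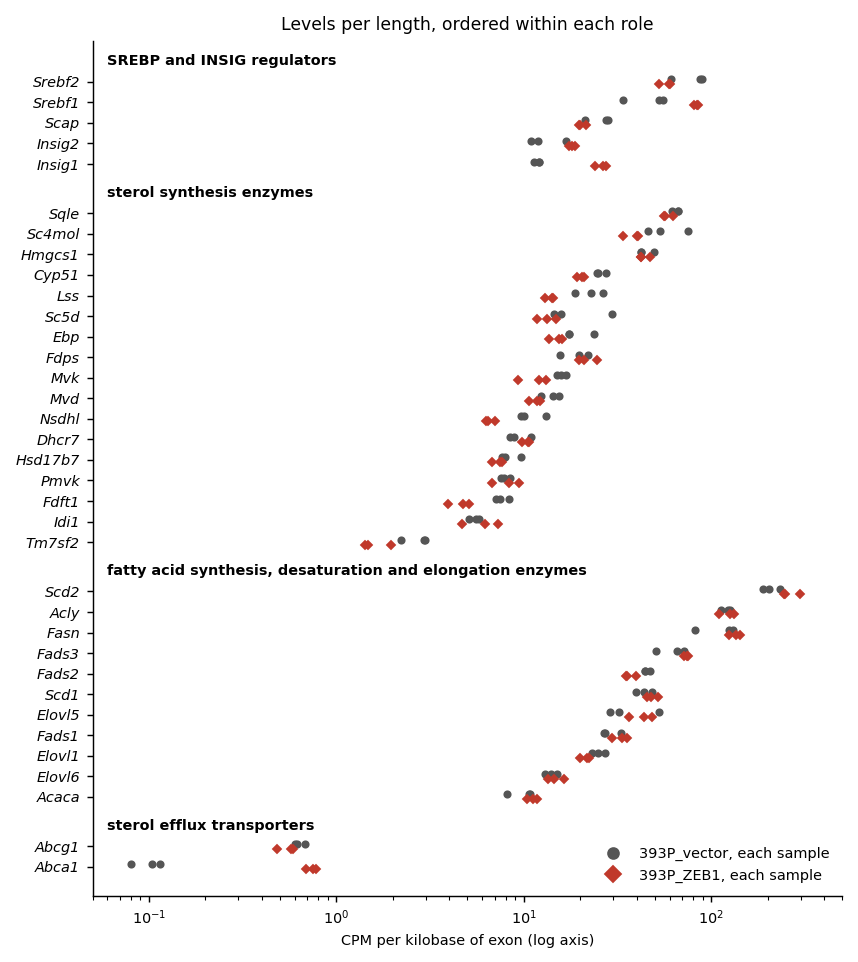
Level of each member in every sample as CPM per kilobase of exon (horizontal log axis), ordered within each role by the 393P_vector mean, with gray circles for 393P_vector and red diamonds for 393P_ZEB1. Scd2, Acly and Fasn lead the list at 208, 121 and 112 CPM per kilobase in 393P_vector, Tm7sf2 is the lowest enzyme at 2.7, and Abca1 moves from 0.0992 to 0.737, past Abcg1.

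Per length, the order of the members was led by Scd2, Acly and Fasn, followed in 393P_vector by Srebf2 at 79.0 and Sqle at 64.9 CPM per kilobase. In 393P_ZEB1 the fourth place was held by Srebf1, at 83.1 CPM per kilobase, which had been in place 8 in 393P_vector at 47.0 CPM per kilobase. Acly and Fasn were neighbors in both orders and did not differ beyond their spread. The transporters were the lowest members in both groups. Insig1 moved from place 25 to place 14, the largest shift in order.

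Abca1 showed the largest change of any member. ABCA1 moves cholesterol and phospholipids out of the cell onto apolipoproteins, and its gene is a classic LXR target. The gene lies on chromosome 4 from 53030789 to 53159895. It was at 1.17, 1.05 and 0.819 CPM in 393P_vector and at 6.99, 7.63 and 7.96 CPM in 393P_ZEB1, so that the lowest 393P_ZEB1 sample was far above the highest 393P_vector sample. The rise was 7.46-fold (log2 fold change 2.90 ± 0.19, edgeR adjusted p = 1.86e-05). It passed with each sample left out in turn, with log2 fold changes between 2.76 and 3.01, and the other genes of chromosome 4 had a median of 0.029. Changes of at least 2-fold past the threshold were found for 2 of the 35 members, Abca1 and Insig1, and for 17.1% of all genes tested. Abcg1, on chromosome 17 from 31057694 to 31117981, encodes the transporter that passes cholesterol to lipoprotein particles. Its level was 3.96, 3.502 and 3.59 CPM in 393P_vector and 2.78, 3.31 and 3.41 CPM in 393P_ZEB1, with the 393P_ZEB1 samples slightly below the others (log2 fold change -0.22 ± 0.16, edgeR adjusted p = 0.333). With the chromosome 17 median of -0.43 as an offset, the change of Abcg1 was 0.21, also short of the threshold. The ratio of Abca1 to Abcg1 per kilobase was 0.167, 0.171 and 0.13 in 393P_vector and 1.43, 1.31 and 1.33 in 393P_ZEB1, so that Abcg1 was the more abundant transcript in the first group and Abca1 in the second (8.74-fold difference of the ratio, exact permutation p = 0.1, adjusted p = 0.133 over 4 ratios).

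The spread between replicates was uneven among the members. In 393P_vector, replicate 3 was the highest of the 3 samples for 17 members and the lowest for 14, together 88.6% of the members against 87.8% of all genes tested. Highest and lowest 393P_vector samples differed more than 1.5-fold for 6 members, Srebf1, Insig2, Sc4mol, Sc5d, Fasn and Elovl5. Among 393P_ZEB1 samples this was so for 1 member, Idi1. Replicates 1 and 2 of 393P_vector were close, with a median ratio of 1.07 over the members. Relative to the mean of replicates 1 and 2, replicate 3 was at 0.625 times for Srebf1 and 0.645 times for Fasn, but at 1.96 times for Sc5d, 1.71 times for Elovl5 and 1.53 times for Sc4mol. Without replicate 3, log2 fold changes shrank from -0.38 to -0.21 for Ebp, from -0.20 to -0.092 for Hsd17b7, from 0.19 to 0.062 for Fdps, from 0.18 to 0.057 for Acaca and from 0.23 to 0.11 for Fads3. They grew from 0.13 to 0.25 for Dhcr7, from 0.14 to 0.21 for Scd1, from 0.075 to 0.13 for Elovl6 and from 0.041 to 0.087 for Pmvk, and the sign turned from -0.030 to 0.053 for Hmgcs1 and from 0.025 to -0.019 for Acly. Of these 11, Dhcr7 passed without the replicate. This library also had the highest total count and the highest Epcam level, and the part of either in these values was not tested.

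**Figure D4:**
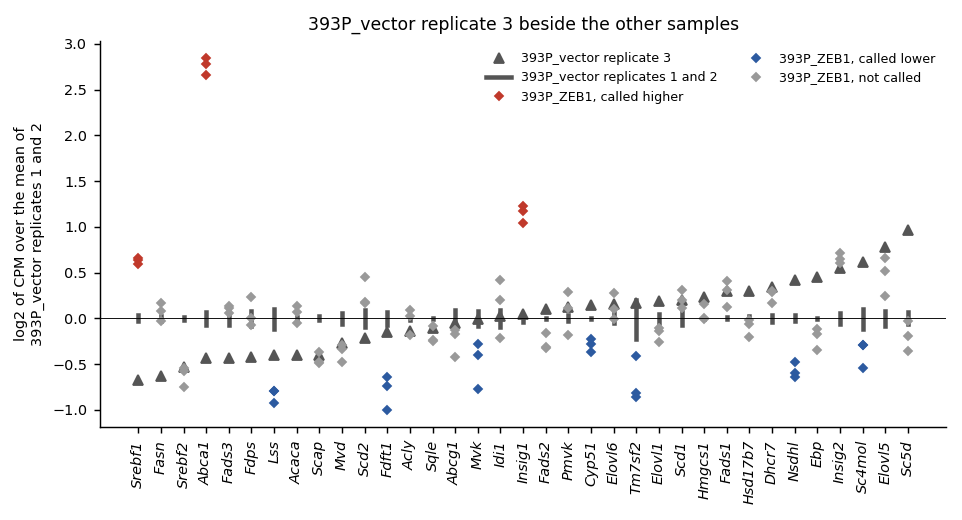
Log2 of each sample's CPM over the mean of 393P_vector replicates 1 and 2 (vertical axis) for the 35 members, ordered by 393P_vector replicate 3 (triangles), with a gray bar for the range of replicates 1 and 2 and diamonds for the 393P_ZEB1 samples. Replicate 3 runs from 0.625 times that mean for Srebf1 to 1.96 times for Sc5d, while Abca1 and Insig1 lie beyond its whole range in 393P_ZEB1.

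Genes around the members were taken from lists by function. Of 11 genes of SREBP processing and sterol sensing, 3 were higher, 0 were lower and 8 did not pass. Thus 27.3% were higher against 18.3% of all genes, and none lower against 19.3%. From this list DESeq2 called 0 lower and limma voom 1 (21.3% and 29.5% of all genes lower). At an unadjusted p under 0.05, 0 of the list were lower as well. For the unadjusted cut the share of all genes was not computed. Mbtps1, the Golgi protease that makes the initial cut in SREBP, rose from 205 ± 18.7 CPM (SD, n = 3) to 301 ± 23.4 CPM (SD, n = 3) (log2 fold change 0.56 ± 0.11, edgeR adjusted p = 0.00691). Faf2 and Ufd1l, which act in the degradation of endoplasmic reticulum proteins, rose as well, with log2 fold changes of 0.87 and 0.91 (edgeR adjusted p = 0.0007 and 0.000382). Of 14 genes of LXR receptors and sterol handling that were tested among 17, 4 were higher, 1 was lower and 9 did not pass. The share called, 35.7%, was near the 37.6% of all genes, with 28.6% higher and 7.14% lower. Nr1h3, which encodes LXR alpha, was low but rose from 1.08, 1.31 and 0.566 CPM to 2.58, 2.03 and 2.096 CPM (log2 fold change 1.20 ± 0.31, edgeR adjusted p = 0.0202). Nr1h2, which encodes LXR beta, was more abundant and did not pass, at 39.1 ± 1.82 CPM (SD, n = 3) and 44.1 ± 5.72 CPM (SD, n = 3). Mylip, an LXR target that marks lipoprotein receptors for degradation, fell (log2 fold change -0.91, edgeR adjusted p = 0.0241). Lipa, the lysosomal acid lipase that frees cholesterol from its esters, rose from 29.6 ± 7.73 CPM (SD, n = 3) to 68.7 ± 4.21 CPM (SD, n = 3) (log2 fold change 1.21, edgeR adjusted p = 0.00169).

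Of 11 tested genes of the isoprenoid branches, late sterol steps and sterol carriers, 4 were higher and 3 were lower (36.4% and 27.3%, against 18.3% and 19.3% of all genes). Acat2, the cytosolic thiolase that supplies the precursor of HMG-CoA, fell from 23.04, 22.3 and 28.3 CPM to 10.3, 11.6 and 9.34 CPM (log2 fold change -1.24 ± 0.15, edgeR adjusted p = 0.000497), on chromosome 17, whose other genes had a median of -0.43. Stard4 and Stard3, which carry sterol between membranes, rose, with log2 fold changes of 1.01 and 0.91 (edgeR adjusted p = 0.000515 and 0.00457). Stard4 lies on chromosome 18, whose other genes had a median of 0.64. Among 18 tested genes of fatty acid supply and elongation, 3 were higher, Acsl4, Me1 and Acsl5, and 3 were lower, Mcat, Acss2 and Ptpla, 16.7% in each direction and close to the 18.3% and 19.3% of all genes.

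**Figure D5:**
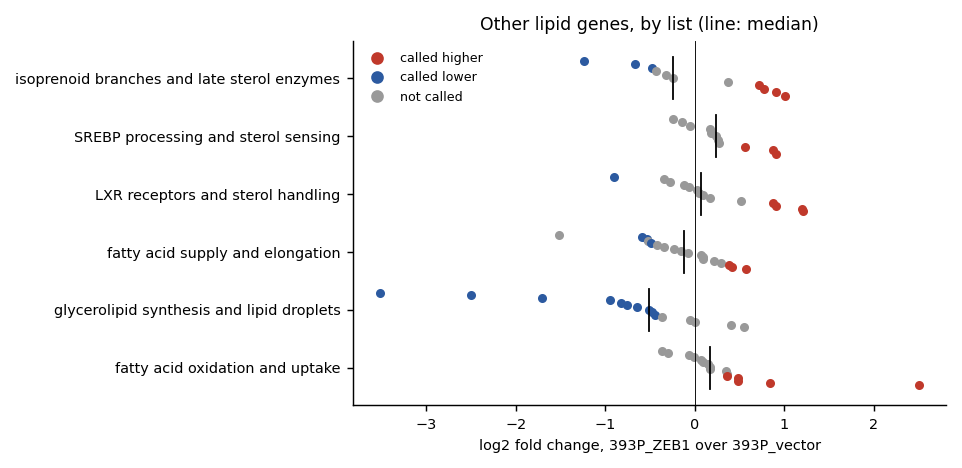
Log2 fold change (horizontal axis, 393P_ZEB1 over 393P_vector) of the 85 tested genes of 6 further lipid lists (rows), 1 point per gene, red or blue where past the threshold, with a line at each list's median. Medians run from -0.51 for glycerolipid synthesis and lipid droplets to 0.23 for SREBP processing and sterol sensing.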

How the data were processed

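The authors sequenced total RNA of 6 samples with SOLiD and deposited a table for each, holding unnormalized counts of reads on 24214 RefSeq features at GRCm38 coordinates and an RPKM per feature, which was not used in any test. The aligner, the counting program and the use of strand are not given in the sources used here. Samples were grouped by their labels. Counts were analysed in R 4.3.3 with edgeR 4.0.16 (filterByExpr with a minimum count of 10, which left 13892 genes, TMM normalization, robust quasi-likelihood fit, no replicate block, Benjamini-Hochberg adjustment over all genes, threshold 0.05). Standard errors were derived from the F statistic. Total counts were 54442450 to 79158012, and precision beyond counting rests on 3 samples a group. Single ratios were tested by exact permutation of their log2 values, two-sided (SciPy 1.17.1). The chromosome median is the median log2 fold change of the other tested genes of a chromosome. Alternatives were DESeq2 1.42.0 (Wald test, or its size factors), limma 3.58.1 voom with sample weights, other filters and thresholds, the replicate block, each sample left out, and the chromosome median as an offset. Procedures were tested on simulated data with the same dispersion for every gene. These data held no outlying replicate and no chromosome shift, so the handling of those features was not tested. The members and lists were chosen with earlier results of these data known. The genes named were all 35 members and 10 other lipid genes. These 10 had the largest change past the threshold, without overlap of the groups and with a mean of at least 1 CPM. Further genes of the lists were chosen after their values were seen. They were Mbtps1, Faf2, Nr1h2, Mylip, Lbr, Acsl4, Me1, Acsl5, Mcat, Acss2, Ptpla, Dgat1, Plin2, Pnpla2, Lipe, Cpt1a, Acadvl, Etfdh, Hadh and Acadm.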

Additional observations from a re-analysis of the deposited data

How the results depend on the processing

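Among 180 recomputed counts and medians over 10 kinds of alternative, 129 stayed within 1.5 times the main count or within the replicate spread of the median. Some of the 129 could not move. The stricter threshold and the test against a fold change of 1.5 keep the main fold changes, and so the median. Neither can raise a count that was 0 in the main fit. With each sample left out in turn, 3 to 7 members were higher and 3 to 11 lower, 3 to 8 sterol enzymes were lower and 0 to 1 higher, 0 to 3 fatty acid enzymes were called, 0 to 2 regulators were lower, 1777 to 3744 of all genes and 11 to 22 other lipid genes were lower, and the median of the members was between -0.081 and -0.005. In the same fits 13.3% to 26.5% of all genes were higher, 12.8% to 27% lower and 26.1% to 53.5% called in either direction. The highest counts of members came without 393P_vector replicate 3, as did the highest shares of all genes. With limma voom and sample weights, 7 members were higher and 13 lower, 1 sterol enzyme was higher, 4 fatty acid enzymes were called, 2 regulators were lower, 3977 of all genes were higher and 4094 lower, 30 other lipid genes were higher and 27 lower, and the median was 0.028. Against a fold change of 1.5, 0 members were lower, 0 sterol enzymes were lower, 1 regulator was higher, 1081 of all genes were higher and 1118 lower, and 5 other lipid genes were higher and 5 lower. At an adjusted p of 0.01, 3 members and 3 sterol enzymes were lower, 1 regulator was higher, 1584 of all genes were higher and 1545 lower, and 12 other lipid genes were higher and 11 lower. DESeq2's Wald test called 1 fatty acid enzyme and 1 regulator lower (21.3% of all genes). Without the low-count filter 1 regulator was lower (11.6% of all genes). With at least 10 counts in every sample, 1 fatty acid enzyme was called (35.2% of all genes). Of all genes, limma voom called 28.6% higher and 29.5% lower, 58.1% in either direction. The test against a fold change of 1.5 called 7.78% higher and 8.05% lower. At an adjusted p of 0.01 these shares were 11.4% and 11.1%.

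With the replicate number as a block, 3 members, all sterol enzymes, were lower (16.2% of all genes). The deviations of same-numbered samples from their group means correlated with r = 0.279, -0.206 and -0.0377. Not every sample correlated best with its own number. The deviations of 3 samples from their own mean are not independent, so this check cannot settle whether equal numbers pair the samples. With the chromosome median as an offset, 1 regulator was higher (16.1% of all genes) and the median of the members was -0.0897. The sign turned for Pmvk (-0.0242), Sqle (0.1806), Acly (-0.2415), Acaca (-0.0897), Fasn (-0.0132) and Abcg1 (0.2129), none past the threshold. Voom turned Hmgcs1 (0.0612). Leaving out samples turned the sign for Hmgcs1 (-0.081 to 0.0529), Pmvk (-0.0657 to 0.1595), Idi1 (-0.0013 to 0.3098), Acly (-0.0308 to 0.1023) and Elovl6 (-0.005 to 0.145). The cause of these changes was not tested.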

Other observations

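Outside sterol and fatty acid synthesis itself, the list of glycerolipid synthesis and lipid droplet genes held 15 tested genes among 16. Of these, 10 were lower in 393P_ZEB1 cells, 0 were higher and 5 did not pass (edgeR, adjusted p below 0.05). Of all genes, 19.3% were lower and 18.3% higher. At an unadjusted p under 0.05, 1 gene of the list was higher, and the share of all genes at that cut was not computed. DESeq2 and limma voom also called 1 higher (20.3% and 28.6% of all genes). Lpin3, a phosphatidate phosphatase, fell from 16.4, 17.6 and 11.95 CPM to 1.94, 2.77 and 3.37 CPM (log2 fold change -2.50 ± 0.25, edgeR adjusted p = 0.000181). Dgat2, which makes triglyceride from diacylglycerol, fell from 5.34, 5.13 and 5.66 CPM to 1.61, 1.602 and 1.703 CPM (log2 fold change -1.71 ± 0.15, edgeR adjusted p = 9.56e-05), while Dgat1 did not pass (log2 fold change -0.37, edgeR adjusted p = 0.0701). Agpat1, an acyltransferase of phosphatidic acid synthesis, fell from 250.2 ± 8.63 CPM (SD, n = 3) to 129.6 ± 11.5 CPM (SD, n = 3) (log2 fold change -0.95, edgeR adjusted p = 0.000288), on chromosome 17, whose other genes had a median of -0.43. The lower genes also included the lipid droplet coat gene Plin2 and the lipases Pnpla2 and Lipe, with log2 fold changes of -0.48, -0.51 and -0.83. With the chromosome medians as offsets, 9 genes of the list were lower and 1 was higher (14.4% and 16.1% of all genes).

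Of 16 tested genes of fatty acid oxidation and uptake, 5 were higher, 0 were lower and 11 did not pass (edgeR). Of all genes, 18.3% were higher and 19.3% lower. From this list DESeq2 called 0 lower and limma voom 1 (21.3% and 29.5% of all genes lower). At an unadjusted p under 0.05, 0 of the list were lower as well. For the unadjusted cut the share of all genes was not computed. Cpt1c, a carnitine palmitoyltransferase isoform best known from the brain, rose from 2.03, 1.99 and 1.81 CPM to 10.1, 11.4 and 11.7 CPM (log2 fold change 2.51 ± 0.15, edgeR adjusted p = 1.11e-05). Cpt1a, the widely expressed isoform that controls entry of fatty acids into mitochondria, was at 107 ± 9.18 CPM (SD, n = 3) and 114 ± 5.62 CPM (SD, n = 3) (log2 fold change 0.095, edgeR adjusted p = 0.51). The other higher genes were Acadvl, Etfdh, Hadh and Acadm, with log2 fold changes between 0.36 and 0.84.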
